A study of Mus musculus with 8 samples.

Results

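Hsd3b3, Hsd3b2, Aadac, Akr1c19, Ccn3 and Zan are 6 genes whose signal was low on the 2 arrays of wild-type mice given dextran sulfate sodium and high on the other 6 arrays of the study. They are 6 of the 19505 genes named on the array, and all 6 were among the 13003 genes tested. They were chosen for that pattern of values, so their levels, differences and ranks are a description and carry no test. Each gene was read from the row whose only platform symbol is that gene, the brightest row where a gene had several. RNA of mouse colon epithelial cells was hybridised to Affymetrix arrays in 4 groups of 2. The groups were SMS2 knockout (KO) mice given 3.5% dextran sulfate sodium (DSS) in the drinking water for 2 days, untreated KO mice, wild-type (WT) mice given the same DSS, and untreated WT mice. All were C57BL/6J. The sources used here give neither the ages nor the deleted part of the gene, and they leave unsaid if a sample came from 1 mouse or several. DSS injures the lining of the colon, and SMS2, encoded by Sgms2, makes sphingomyelin from ceramide.

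The genes have different roles. Hsd3b3 and Hsd3b2 encode 3-beta-hydroxysteroid dehydrogenases, which turn delta-5 steroids such as pregnenolone into delta-4 steroids such as progesterone, a step of all classes of steroid hormone. The intestinal epithelium can make glucocorticoids locally, and an enzyme of this activity is needed for it. Akr1c19 encodes an aldo-keto reductase, a family that interconverts ketones and alcohols, those of steroids included. Aadac encodes arylacetamide deacetylase, an esterase of the endoplasmic reticulum that hydrolyses drugs and lipid esters. Ccn3 encodes a secreted matrix-associated protein that binds integrins and Notch receptors. Zan encodes zonadhesin, a sperm membrane protein that binds the egg coat.

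Both Hsd3b genes lie next to each other on chromosome 3, Aadac lies elsewhere on chromosome 3, and Akr1c19, Ccn3 and Zan lie on chromosomes 13, 15 and 5. Sgms2, the knocked-out gene, is on chromosome 3 too. Any part of this shared chromosome in the differences between KO and WT mice was not tested. The 250 bases before the annotated start of the 4 enzyme genes are shown because these genes were low on the same arrays, and the windows let a reader see what they share in sequence. They are RefSeq sequence of assembly GRCm38.p6, read 5′ to 3′ on the gene's own strand, with capitals at matches of AGATAA (the GATA factor motif) or TTTAT (the CDX motif) on either strand. Hsd3b3 is on the minus strand at chr3:98763129-98763378, Hsd3b2 on the minus strand at chr3:98724544-98724793, Aadac on the plus strand at chr3:60031538-60031787 and Akr1c19 on the plus strand at chr13:4233490-4233739.
Hsd3b3: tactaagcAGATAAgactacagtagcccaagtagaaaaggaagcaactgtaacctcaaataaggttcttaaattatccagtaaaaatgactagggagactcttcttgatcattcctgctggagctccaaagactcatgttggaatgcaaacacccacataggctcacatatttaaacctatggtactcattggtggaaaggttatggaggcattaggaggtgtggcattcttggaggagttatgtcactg
Hsd3b2: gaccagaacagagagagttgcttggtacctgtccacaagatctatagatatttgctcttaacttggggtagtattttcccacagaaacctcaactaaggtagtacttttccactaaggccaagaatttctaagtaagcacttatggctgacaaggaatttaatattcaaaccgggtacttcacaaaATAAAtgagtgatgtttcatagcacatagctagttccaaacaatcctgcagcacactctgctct
Aadac: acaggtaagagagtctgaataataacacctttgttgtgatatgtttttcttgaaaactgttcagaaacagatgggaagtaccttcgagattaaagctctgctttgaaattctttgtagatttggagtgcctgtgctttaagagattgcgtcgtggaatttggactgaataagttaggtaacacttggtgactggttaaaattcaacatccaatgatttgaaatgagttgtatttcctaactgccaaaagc
Akr1c19: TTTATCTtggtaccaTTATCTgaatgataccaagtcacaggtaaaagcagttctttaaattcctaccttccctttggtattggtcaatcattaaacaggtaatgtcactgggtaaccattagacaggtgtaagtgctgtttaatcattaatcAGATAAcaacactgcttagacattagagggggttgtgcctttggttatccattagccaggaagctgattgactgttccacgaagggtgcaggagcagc

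No motif searched was found in all windows of the group. Of the 5 members with a promoter entry, Hsd3b3, Hsd3b2, Aadac, Akr1c19 and Zan, AGATAA was found in Hsd3b3 and Akr1c19, with 1 match and 3 matches, and it occurs in 9.99% of the 32851 RefSeq windows of this length. TTTAT was found in Hsd3b2 and Akr1c19 and occurs in 37.3% of windows. In Akr1c19 the match of TTTAT overlaps a match of AGATAA read on the other strand. The half-site of the glucocorticoid receptor, AGAACA, was found in Hsd3b2 and Zan and occurs in 16.1% of windows. None of the 5 genes had GTTAAT (HNF1 half-site, 6.43% of windows), CAAAGTCCA (HNF4, 0.384%), CAAGGTCA (NR5A2, 1.33%) or TATAAA (the core promoter box of that name, 12.4%). In a global alignment with gaps, the Hsd3b2 and Hsd3b3 windows had 134 identical bases, or 53.6% of the window length of 250. The pairs of windows from different genes ran from 50% to 55.2%. Such an alignment places gaps to gain matches, and no windows of other genes were aligned, so nothing is read from these shares. A second annotated Hsd3b3 start had a window 99.2% identical to the one shown. A match in such a window is a description of its letters and not a site.

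Sgms2 followed the genotype labels. It had a log2 signal of 7.35 and 6.47 on the KO DSS arrays, 7.30 and 7.33 on the untreated KO arrays, 11.27 and 10.90 on the WT DSS arrays and 10.79 and 10.76 on the untreated WT arrays. Replicate arrays correlated at r of 0.981 to 0.992 over the tested genes. The 23 measured colonocyte and epithelial markers averaged 15.48 on each of the KO DSS arrays, 15.86 and 15.96 on the untreated KO arrays, 15.59 and 15.43 on the WT DSS arrays and 15.71 and 15.85 on the untreated WT arrays. Single markers moved more, from -2.34 to 1.34 with DSS in WT. There 4 were lower and 1 higher by limma, where 1.12% and 2.91% of all tested genes were. In KO 1 was lower with DSS (0.392% of all genes), and 1 was higher in untreated KO than in untreated WT mice (0.338%). Signals of other cells differed between arrays. The 14 measured exocrine pancreas markers averaged 11.32 on WT DSS array 1, against 5.75 to 7.12 on the other 7 arrays. The 3 measured Y-linked genes averaged 8.99 to 9.95 on the 4 DSS arrays and 3.75 to 3.90 on the 4 untreated arrays, so the sex of the mice and the treatment cannot be told apart in either genotype. Every rise, fall or difference between DSS and untreated mice given below carries this limit, and so does the interaction. Between KO DSS and WT DSS mice the Y-linked averages were alike, 8.99 and 9.95 against 9.65 and 9.77. None of the 3 genes passed by limma in that comparison.

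Hsd3b3 had the lowest WT DSS signal relative to untreated WT of the 6 genes. Its log2 signal was 16.29 and 16.12 on the KO DSS arrays, 17.02 and 17.00 on the untreated KO arrays, 11.13 and 10.29 on the WT DSS arrays, and 16.95 and 17.12 on the untreated WT arrays. The WT DSS arrays did not overlap any other array, and the other 6 arrays lay within 1.0 log2 unit of each other. The signal of WT DSS mice was 80.4-fold lower than that of untreated WT mice (log2 difference -6.33, SE 0.28). KO DSS mice had a 45.2-fold higher signal than WT DSS mice (5.50). The difference between DSS and untreated KO mice was -0.80, and those 2 groups did not overlap. Untreated KO and untreated WT arrays overlapped, with a difference of -0.03.

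Hsd3b2, its neighbour, followed the same pattern. It had 11.93 and 11.66 on the KO DSS arrays, 12.74 and 12.57 on the untreated KO arrays, 7.52 and 6.84 on the WT DSS arrays, and 12.67 and 12.84 on the untreated WT arrays. Both WT DSS arrays stayed above the background, which was set from negative-control rows at 6.00 to 6.24 per array. The difference was -5.57 (SE 0.27) between DSS and untreated WT mice, a 47.6-fold lower signal, and 4.62 between KO DSS and WT DSS mice, a 24.6-fold higher one. The difference between DSS and untreated KO mice was -0.86, without overlap, and that between untreated KO and untreated WT mice was -0.10, with overlap. Hsd3b2 and Hsd3b3 are close paralogs, and the sequences of the probes were not used here, so signal that their rows share cannot be told apart from signal of each gene.

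Aadac reached the background in WT DSS mice. Its log2 signal was 10.43 and 11.19 on the KO DSS arrays, 11.18 and 10.99 on the untreated KO arrays, 5.97 and 6.31 on the WT DSS arrays, and 11.61 and 11.41 on the untreated WT arrays. Of the 2 WT DSS arrays, 1 was above the background. The signal of WT DSS mice was 41.4-fold lower than that of untreated WT mice (-5.37, SE 0.28), and KO DSS mice were 25.5-fold higher than WT DSS mice (4.67). DSS and untreated KO arrays overlapped, with a difference of -0.27.

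Akr1c19 changed least among the 4 enzyme genes in WT mice. It had 11.10 and 10.51 on the KO DSS arrays, 12.17 and 11.68 on the untreated KO arrays, 7.01 and 7.54 on the WT DSS arrays, and 11.24 and 11.61 on the untreated WT arrays. All 8 arrays were above the background, and both WT DSS arrays were below every other array. The difference was -4.15 (SE 0.30) between DSS and untreated WT mice, a 17.7-fold lower signal, and 3.53 between KO DSS and WT DSS mice, an 11.6-fold higher one. DSS and untreated KO arrays did not overlap either, at -1.12, a 2.17-fold lower signal.

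**Figure D1:**
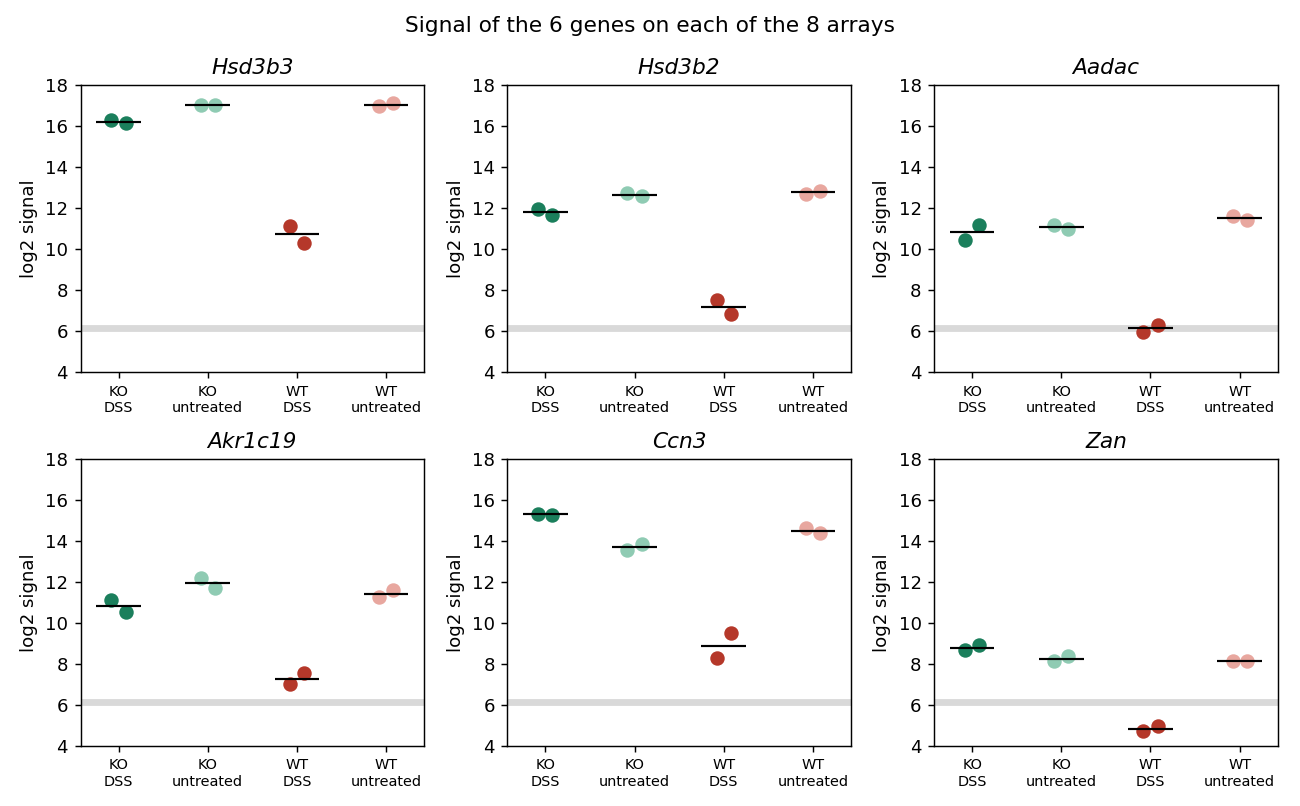
Log2 signal (vertical axis) of the 6 genes on each of the 8 arrays, by group (horizontal axis); points are arrays, black bars are group means (n = 2) and the grey band is the range of the background over arrays, 6.00 to 6.24. Both WT DSS points lie below all others in every panel, and Ccn3 and Zan are highest in KO DSS.

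Ccn3 was lowest in WT DSS mice and highest in KO DSS mice. Its log2 signal was 15.30 and 15.26 on the KO DSS arrays, 13.54 and 13.83 on the untreated KO arrays, 8.29 and 9.48 on the WT DSS arrays, and 14.62 and 14.36 on the untreated WT arrays. No 2 groups overlapped. The signal of WT DSS mice was 48.6-fold lower than that of untreated WT mice (-5.60, SE 0.34), while that of KO DSS mice was 3.01-fold higher than that of untreated KO mice (1.59, SE 0.34). KO DSS mice were 84.0-fold higher than WT DSS mice (6.39), and the difference between untreated KO and untreated WT mice was -0.80. The 2 WT DSS arrays were the least alike of any replicate pair of the 6 genes, with an SD of 0.84. Without WT DSS array 1 the WT difference was -5.01, and without WT DSS array 2 it was -6.20.

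Zan, too, was lowest in WT DSS mice and highest in KO DSS mice. It had 8.67 and 8.90 on the KO DSS arrays, 8.15 and 8.36 on the untreated KO arrays, 4.72 and 4.95 on the WT DSS arrays, and 8.13 and 8.12 on the untreated WT arrays. Both WT DSS arrays were below the background, so the WT DSS level is only a bound. WT DSS mice were at least 4.02-fold lower than untreated WT mice, and KO DSS mice were at least 6.35-fold higher than WT DSS mice. KO DSS mice were 1.44-fold higher than untreated KO mice (0.53, SE 0.23), without overlap. The array measures a transcript at this row and does not show whether zonadhesin protein was made.

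Outside WT DSS mice the 6 genes did not move as 1 block. The median of their differences was -0.54 between DSS and untreated KO mice, with 2 genes above 0 and 4 below, and the median over all tested genes was -0.037. It was -0.06 between untreated KO and untreated WT mice, with 2 above and 4 below, against -0.027 over all genes. DSS and untreated KO arrays did not overlap for 3 genes that were lower with DSS, Hsd3b3, Hsd3b2 and Akr1c19, as for 22% of all tested genes, and for 2 that were higher, Ccn3 and Zan, as for 16.8%. Untreated KO and untreated WT arrays did not overlap for Aadac and Ccn3, lower in KO, as for 20.6% of genes, and for Akr1c19 and Zan, higher in KO, as for 17.5%. Over the 6 arrays other than WT DSS, Hsd3b3 and Hsd3b2 correlated at r = 0.99 and Ccn3 and Zan at r = 0.73. Hsd3b3 and Akr1c19 correlated at 0.83 over the same 6 arrays. Hsd3b3 and Zan had r = -0.96 there, and Akr1c19 and Ccn3 had r = -0.92. Aadac stood between these, with r = 0.53 to Hsd3b3 and -0.30 to Ccn3. Over all 8 arrays, with the low values of the 2 WT DSS arrays included, every pair had r between 0.892 and 0.999. These values describe 6 or 8 arrays in which the genes share the same RNA samples and groups.

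The difference between WT DSS and untreated WT mice had a median of -5.47 over the 6 genes, and all 6 were negative. Over all 13003 tested genes the median was -0.047 and the range from the 5th to the 95th percentile was -0.70 to 0.89. The non-overlap of the 2 groups with lower WT DSS values, which all 6 genes showed, held for 24.1% of tested genes. The differences of Hsd3b3, Ccn3, Hsd3b2, Aadac and Akr1c19 ranked 1 to 5 from the lowest, and Zan, with only a bound, is given no rank. In KO DSS against WT DSS mice the median was 4.65, against -0.022 over all genes, and Ccn3, Hsd3b3, Aadac and Hsd3b2 ranked 1 to 4 from the highest. Non-overlap with higher KO values held for 16.1% of genes in that comparison. These contrasts chose the genes, so the ranks describe the choice and support nothing.

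**Figure D2:**
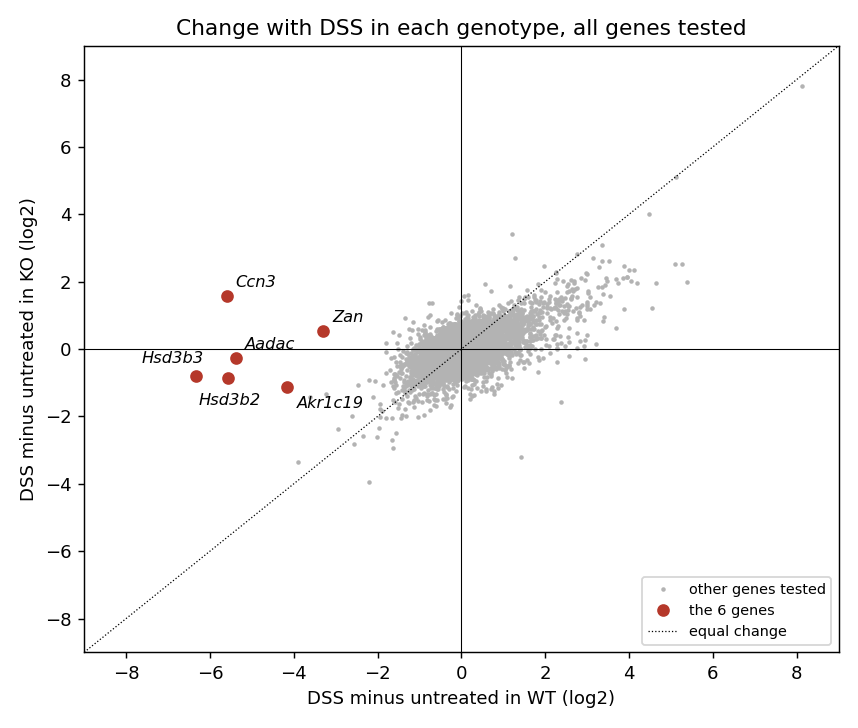
Log2 difference between DSS and untreated mice in WT (horizontal axis) and in KO (vertical axis) for all 13003 tested genes, with the 6 genes in red and the line of equal change dotted. The 5 genes other than Zan lie at -6.33 to -4.15 in WT, and all 6 at -1.12 to 1.59 in KO; the WT position of Zan is its measured signal, which was under the background in WT DSS mice.

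The gap between the higher WT DSS array and the lowest of the other 6 arrays was large for the 6 genes. They were chosen for this pattern, so their gaps describe the choice and support nothing. Both WT DSS arrays were below all other arrays for 799 genes, or 6.14% of those tested, and by over 1 log2 unit for 9 genes, or 0.0692%. The gap was 4.99 for Hsd3b3, 4.14 for Hsd3b2, 4.12 for Aadac, 4.06 for Ccn3 and 2.97 for Akr1c19. Zan, under the background on both WT DSS arrays, is also among the 9. Akr1c19 thus had the smallest of the gaps given for the group. The next gene, Cyp2d26, a cytochrome P450, was outside the group with a gap of 1.38. It had 11.63 and 11.93 on the KO DSS arrays, 14.45 and 13.82 on the untreated KO arrays, 10.25 and 9.83 on the WT DSS arrays, and 13.18 and 12.78 on the untreated WT arrays. The difference of Cyp2d26 between DSS and untreated KO mice was -2.36, where the 6 genes had -1.12 to 1.59. L1cam (1.06), Hsbp1l1 (1.03), Slc9a3 (0.87), Ndufa3 (0.84) and Fam83d (0.80) followed. Slc9a3 is also on the list of colonocyte and epithelial markers. Of 2634 rows with no gene symbol, 1 had a gap over 1 log2 unit, at 1.67.

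Gaps of this size were not found below the arrays of any other group. No gene had both KO DSS arrays more than 1.33 log2 units below all others, and no gene had both untreated KO arrays more than 0.82 below. The untreated WT arrays were lowest by over 1 log2 unit for 66 genes, and the largest such gap was 2.14. These counts were not tested, because the 6 genes were chosen from the same values.

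**Figure D3:**
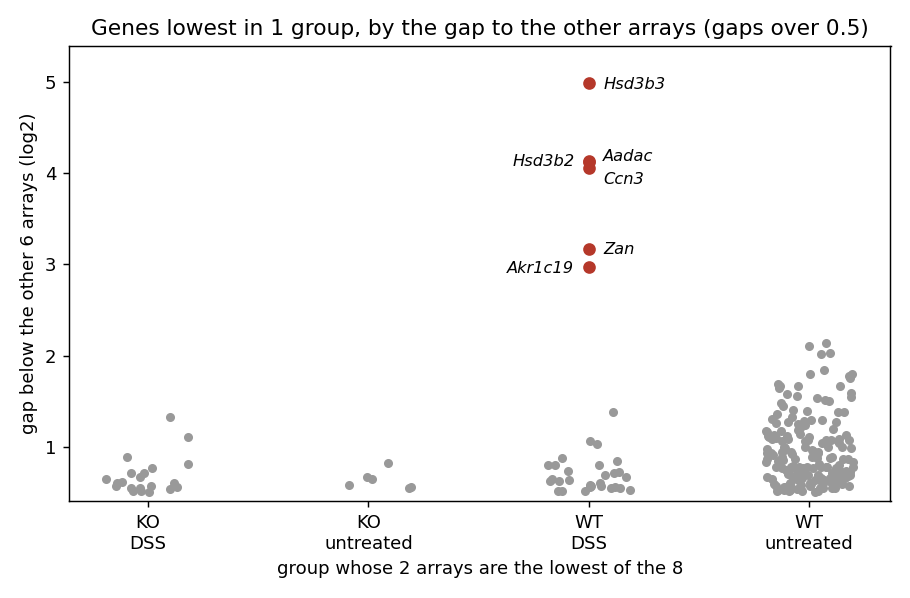
Gap in log2 units (vertical axis) between the higher array of a group and the lowest of the other 6 arrays, for each tested gene with a gap over 0.5, by the group whose 2 arrays were lowest (horizontal axis; sideways spread has no meaning). The 6 named genes lie at 2.97 to 4.99 in WT DSS, Zan at its measured signal under the background, and the highest other point is 2.14 in untreated WT.

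The interaction, the change with DSS in KO mice minus that in WT mice, draws on the values that chose the genes. It was 7.19 (SE 0.48) for Ccn3, 5.53 for Hsd3b3, 5.10 for Aadac, 4.71 for Hsd3b2 and 3.03 for Akr1c19, and that of Zan is known only as a bound. By limma 10 of 13003 genes passed an adjusted p of 0.05 here, or 0.0769%. The 6 with a positive sign, 0.0461% of those tested, were the members, whose choice fixed this, and nothing is read from it. The other 4, or 0.0308%, had the opposite sign. They were Hsd17b13 (-2.71), Arhgap6 (-2.60), Mme and Ccl5. Mme and Ccl5 were named after their values were seen, and both were under the background on both untreated WT arrays, so they are given no value.

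Relatives of the members were compared by family. Of the 8 genes of the HSD3B family on the array, 4 besides the members were tested and none passed in any of the 5 comparisons. Of all tested genes, 4.04% passed between DSS and untreated mice in WT and 0.931% in KO. In both comparisons sex and treatment cannot be told apart. KO mice differed from WT mice in 0.392% of genes when untreated (0.338% higher and 0.0538% lower) and in 0.354% with DSS (0.115% higher and 0.238% lower). Hsd3b6, another steroid dehydrogenase of the cluster, had 6.03 and 5.86 on the KO DSS arrays, 6.41 and 6.54 on the untreated KO arrays, 4.19 and 5.51 on the WT DSS arrays, and 5.75 and 6.79 on the untreated WT arrays. Both its WT DSS arrays were the lowest of the 8, and both were under the background, so its difference is only a bound, at least 1.11-fold lower than in untreated WT mice (limma adjusted p = 0.0937). Nsdhl, an enzyme of cholesterol synthesis, had -0.80 in WT (limma adjusted p = 0.116), Hsd3b7, of bile acid synthesis, had -0.55 (adjusted p = 0.31) and Sdr42e1 had -0.32 (adjusted p = 0.626). Hsd3b1 and Hsd3b5 were under the filter on mean signal.

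None of the 10 tested aldo-keto reductases other than Akr1c19 passed in any comparison. The nearest on either side of Akr1c19 were Akr1c13 and Akr1c12. Akr1c13 differed by -0.12 between DSS and untreated WT mice, Akr1c12 by -0.25, Akr1c18 by -0.37 and Akr1c14 by -0.08, with limma adjusted p-values of 0.7 to 0.957. Akr1c18, which inactivates progesterone, had unlike replicates in KO DSS, at 9.12 and 7.59 on the KO DSS arrays against 9.59 and 9.88 on the WT DSS arrays. The largest WT difference in the family was that of Akr1e1, at -0.83 (adjusted p = 0.0775). Of the others, Akr1b8 had -0.28, Akr1a1 -0.42, Akr7a5 -0.81 and Akr1b10 0.26. Akr1c21 was under the background on both WT DSS arrays and is given no fold, while Akr1c6, Akr1cl and Akr1d1 were under the filter.

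The esterases related to Aadac moved in both directions. Of 16 tested esterases and lipases of the list, 1 rose and 2 fell with DSS in WT, where 2.91% of all genes rose and 1.12% fell. In KO mice 2 fell with DSS, against 0.392% of all genes, and none rose, against 0.538%. Ces1f had 12.23 and 11.76 on the KO DSS arrays, 12.42 and 13.09 on the untreated KO arrays, 10.82 and 10.96 on the WT DSS arrays, and 12.53 and 12.45 on the untreated WT arrays. It fell in WT by 1.60 log2 units (SE 0.28, limma adjusted p = 0.00655), and its 2 WT DSS arrays were the lowest of the 8. Ces1g fell by 1.95 in WT (adjusted p = 0.00991) and fell by 1.77 in KO (adjusted p = 0.0479). Ces2g rose by 1.40 in WT (adjusted p = 0.0402). Nceh1, which hydrolyses cholesteryl esters and acetylated ether lipids, fell by 1.72 in KO (adjusted p = 0.0188) and differed by -1.13 in WT (adjusted p = 0.0542). The gene cluster of Aadacl2, beside Aadac, was under the filter on all its rows. Leaving out either untreated WT array moved the WT p-values of Ces1f, Ces1g and Ces2g past 0.05, to between 0.0517 and 0.305, and leaving out either untreated KO array did so for Nceh1 (0.0567 to 0.189) and for Ces1g in KO (0.213 to 0.32). Other single arrays did so for Ces1g in WT (without WT DSS array 2, 0.0974), for Ces1g in KO (without KO DSS array 2 or an untreated WT array, 0.0847 to 0.0975) and for Ces2g (without a WT DSS or untreated KO array, 0.0562 to 0.16).

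Of the 3 other tested CCN family genes, Ccn2 rose where Ccn3 fell in WT. Ccn2, a growth factor-like matrix protein of fibroblasts, had 8.84 and 8.52 on the KO DSS arrays, 7.64 and 6.81 on the untreated KO arrays, 7.99 and 8.12 on the WT DSS arrays, and 6.40 and 6.18 on the untreated WT arrays. It rose by 1.76 in WT (SE 0.29, limma adjusted p = 0.00479) and by 1.45 in KO (adjusted p = 0.0432). The WT call was lost without untreated WT array 2 (adjusted p = 0.0566), and the KO call without any 1 array but untreated KO array 1 and KO DSS array 2 (0.0587 to 0.46). Ccn1 differed by -0.51 in WT and Ccn5 by 0.28, and neither passed. Of 20 tested binding partners of Ccn3 and Notch pathway genes, 2 rose in WT and 1 in KO, where 2.91% and 0.538% of all genes rose. Fibroblast and matrix markers, a list that also holds Fbln1, rose too, 10 of 14 tested in WT and 6 in KO. A change of Fbln1 cannot be told apart from that of these markers. Fbln1, a matrix protein whose human form binds CCN3, rose by 2.99 in WT (adjusted p = 0.00084) and by 2.24 in KO (adjusted p = 0.0188), the second lost without KO DSS array 1 or either untreated KO array (0.105 to 0.125). The Notch ligand Dll4 rose by 1.29 in WT (adjusted p = 0.0425), a call lost without WT DSS array 1 or any 1 of the untreated arrays (0.0527 to 0.324).

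None of the 5 tested genes with domains like those of Zan or with egg coat binding passed in any comparison. The mucin Muc2 differed by 0.26 between DSS and untreated WT mice, and Fcgbp, which like Muc2 is made by goblet cells, by 0.65 (adjusted p = 0.409). Sperm genes of the list, among them Spam1, Acr and Zp3r, were under the filter.

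Of 16 tested genes of gut glucocorticoid synthesis and its receptors, 1 rose and 1 fell in WT with DSS, beside 2.91% and 1.12% of all genes, and none passed in KO. Hsd11b1, which regenerates active glucocorticoid, rose by 1.67 in WT (SE 0.27, limma adjusted p = 0.00466) and differed by 1.24 in KO (adjusted p = 0.0637). Fkbp5, a glucocorticoid-induced chaperone partner, fell by 1.60 in WT (SE 0.29, adjusted p = 0.00845) and differed by -0.87 in KO (adjusted p = 0.295). Each of these calls was lost without 1 of the WT arrays, Hsd11b1 without untreated array 1 (0.0701), Fkbp5 without untreated array 2 (0.109) or DSS array 2 (0.068). Markers of adrenal cortex and gonad, tissues in which such enzymes are abundant, were below the background on all 8 arrays for 11 of 12 genes measured, and 9 of 12 markers of kidney proximal tubule and liver were too.

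Hsd17b13, a lipid droplet dehydrogenase, was high on the WT DSS arrays, where the 6 genes were low. It had 11.99 and 12.25 on the KO DSS arrays, 11.83 and 12.33 on the untreated KO arrays, 14.60 and 14.59 on the WT DSS arrays, and 11.85 on each of the untreated WT arrays. Its WT DSS arrays were the highest, as for 859 of the 13003 tested genes, and the other 6 lay close together. It rose by 2.75 in WT (SE 0.24, limma adjusted p = 8.59e-05), and the difference between KO DSS and WT DSS mice was -2.47 (adjusted p = 0.000574). The list it belongs to holds 19 tested sex steroid and hydroxysteroid enzymes. Of all tested genes 2.91% rose and 1.12% fell with DSS in WT, and 0.238% were lower in KO DSS than in WT DSS mice. In the list 2 were higher and 1 lower with DSS in WT, and none changed in KO. The other 2 were Rdh16, a retinol dehydrogenase under the background on all arrays but those of WT DSS (at least 1.81-fold higher, adjusted p = 0.0399), and Srd5a3, a polyprenol reductase (-1.24, adjusted p = 0.0444), and each was lost without any 1 of 6 arrays, all but those of KO DSS (0.057 to 0.283). Between KO DSS and WT DSS mice 2 genes of the list were lower, Hsd17b13 and Rdh16 (at least 1.82-fold, adjusted p = 0.0423), the second lost without any 1 of 7 arrays (0.0691 to 0.195).

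The genes whose profile over the 8 arrays was most like the mean of the 6 had smaller differences between DSS and untreated WT mice, from -1.52 to -0.23. Cox7c, a respiratory chain subunit, had the highest r, 0.970, with 18.58 and 18.60 on the KO DSS arrays, 18.54 and 18.60 on the untreated KO arrays, 18.34 and 18.31 on the WT DSS arrays, and 18.55 on each of the untreated WT arrays. The next were Zg16, Hsbp1l1, Rbm8a, Exoc7, Ndufa3, Atp5h, Prr3, Fam83d, Ndufs3, Rpa1 and Cby1, down to r = 0.943. For Hsd3b3 and Hsd3b2 the 3 nearest genes were all members. The members were chosen for low values on the same WT DSS arrays, so nothing is read from this. The nearest other gene was Rbm8a for Aadac (0.977), Kif2c for Akr1c19 (0.968), Mrps23 for Ccn3 (0.991) and Cox7c for Zan (0.988), and Ndufa5 was near both Ccn3 (0.967) and Zan (0.969). The most opposite genes were Arhgap6 (-0.992), Hsd17b13 (-0.991), Snap23 (-0.986), Snx9 (-0.984) and Rreb1 (-0.983). Arhgap6 had 7.21 and 7.47 on the KO DSS arrays, 6.95 and 7.24 on the untreated KO arrays, 9.70 and 9.78 on the WT DSS arrays, and 6.88 and 6.92 on the untreated WT arrays. All these correlations rest on 8 arrays, and r does not measure the size of a difference. For Cox7c the difference between DSS and untreated WT mice was -0.23 (limma adjusted p = 0.708).

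Among the nearest tested genes on both sides, 19 or 20 for each member with the members left out, none was lower with DSS in WT by limma, against 1.12% of all genes, and none passed between KO and WT with DSS. With so few neighbours nothing is read from these counts. In the other direction 1 neighbour of Zan, Pcolce, was higher with DSS in WT; it was named after its values were seen and was under the background on both untreated WT arrays. Hsd3b6, directly after Hsd3b3, had its lowest signal on the 2 WT DSS arrays, and Akr1e1 near Akr1c19 differed by -0.83, and neither passed. Beside the Hsd3b pair, Phgdh differed by -0.32 and Hao2 by 0.50 between DSS and untreated WT mice. Beside Ccn3, Mal2 differed by -0.17 and Taf2 by -0.20. Beside Aadac, Mbnl1 differed by 0.43, and beside Zan, Slc12a9 and Pop7 differed by -0.47 and -0.48. None of these named neighbours passed. Mme, with a call in the interaction, was also among the tested neighbours of Aadac.

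**Figure D4:**
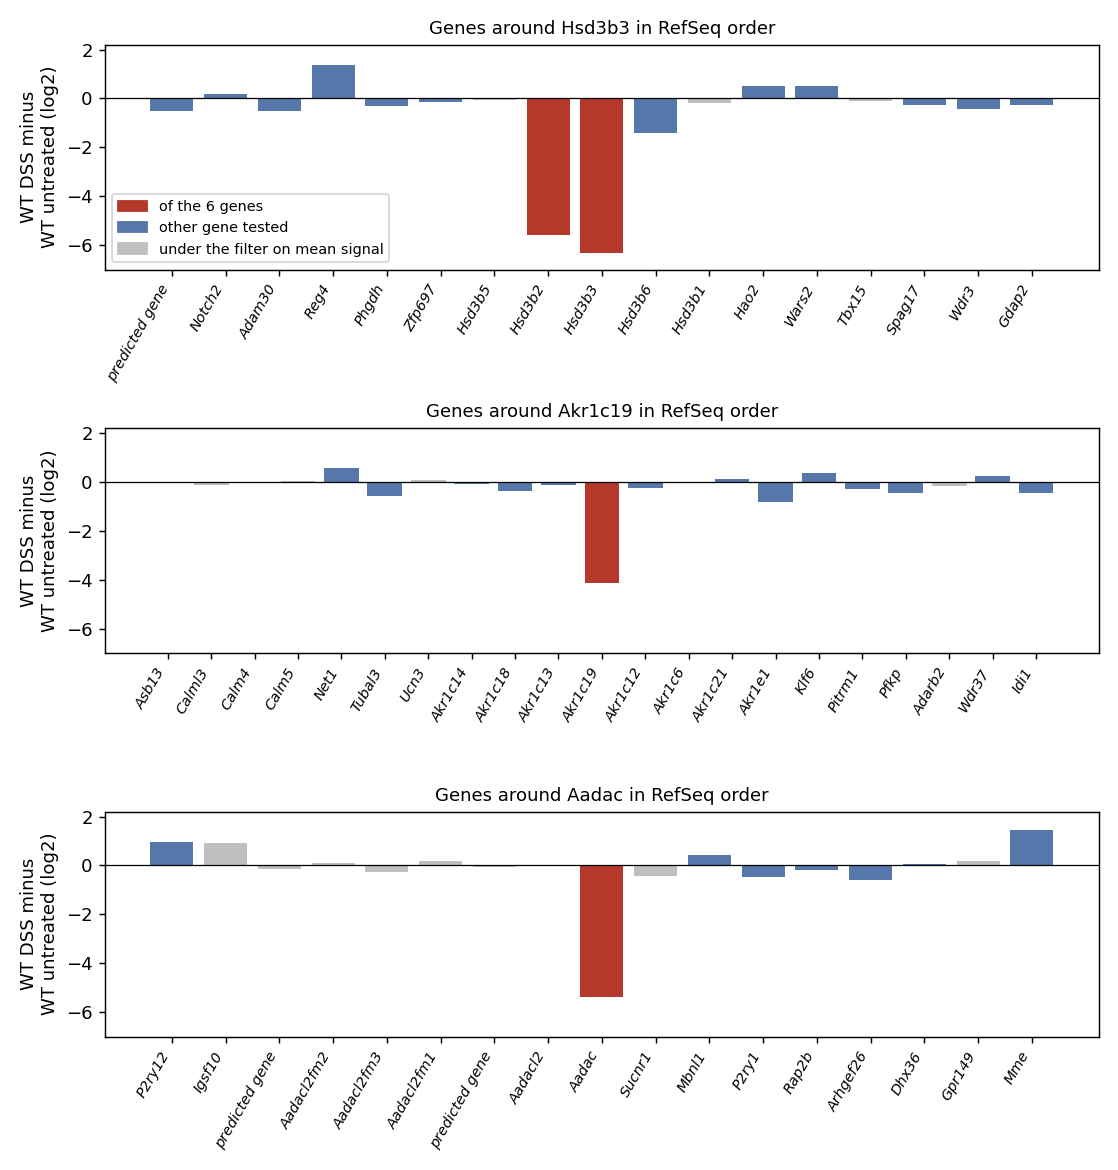
Log2 difference between WT DSS and untreated WT mice (vertical axis) for genes in RefSeq order around Hsd3b3, Akr1c19 and Aadac (horizontal axis), with 4 of the 6 genes (Hsd3b2, Hsd3b3, Akr1c19 and Aadac) in red, other tested genes in blue and genes under the filter in grey. Hsd3b2 and Hsd3b3 are at -5.57 and -6.33, Akr1c19 at -4.15 and Aadac at -5.37; Hsd3b6 is drawn at its measured signal, under the background in WT DSS mice.

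Of 27 tested nuclear receptors and gut transcription factors, 2 fell with DSS in WT, where 1.12% of all genes fell. None passed in the other 4 comparisons. Ppara, a fatty acid receptor, had 8.02 and 8.57 on the KO DSS arrays, 9.28 and 9.30 on the untreated KO arrays, 7.64 and 7.70 on the WT DSS arrays, and 9.17 and 9.32 on the untreated WT arrays. It fell by 1.58 in WT (SE 0.24, limma adjusted p = 0.00359) and differed by -0.99 in KO (adjusted p = 0.114). Osr2 fell by 2.62 in WT (SE 0.53, adjusted p = 0.0178), a call lost without any 1 of the 4 WT arrays (0.0607 to 0.129). In KO mice Osr2 differed by -1.98 with DSS (limma adjusted p = 0.158), with 12.65 and 10.53 on the KO DSS arrays. The part of Ppara and Osr2 in the level of the 6 genes was not tested.

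Markers of position along the gut and of other cells moved on the same arrays. Of 9 tested posterior Hox genes, which mark the distal colon, 2 rose and 1 fell with DSS in WT, none changed in KO, and 2 were lower in KO DSS than in WT DSS mice. Of all tested genes 2.91% rose and 1.12% fell in WT, and 0.238% were lower in KO DSS than in WT DSS mice. Hoxd13 had 7.78 and 10.17 on the KO DSS arrays, 9.21 and 9.30 on the untreated KO arrays, 11.98 and 12.34 on the WT DSS arrays, and 9.44 and 8.98 on the untreated WT arrays. It rose by 2.96 in WT (limma adjusted p = 0.0115) and differed by -3.19 between KO DSS and WT DSS mice (adjusted p = 0.0418). Hoxd11 rose by 2.29 in WT (adjusted p = 0.0045) and differed by -2.21 between KO DSS and WT DSS mice (adjusted p = 0.0302). Hoxb9 fell by 1.19 in WT (adjusted p = 0.0389). The Hox calls were each lost without at least 1 WT array, at adjusted p-values of 0.0517 to 0.315. Of 21 tested ileal and absorptive genes, 9 fell in WT and 9 fell in KO with DSS, with 1 higher in WT. Of all tested genes 1.12% fell and 2.91% rose in WT, and 0.392% fell in KO. In the same list 2 genes were higher in untreated KO than in untreated WT mice, against 0.338% of all genes. Another call was lower in KO DSS than in WT DSS mice (1 gene, against 0.238%), and 1 gene had a negative interaction (against 0.0308%). Slc10a2, the bile acid uptake transporter, fell by 2.02 in WT (adjusted p = 0.000664) and fell by 2.61 in KO (adjusted p = 0.000677).

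The 15 measured fibroblast and matrix markers averaged 10.80 and 9.89 on the KO DSS arrays, 8.92 and 8.71 on the untreated KO arrays, 9.85 and 10.35 on the WT DSS arrays, and 7.46 and 7.73 on the untreated WT arrays. Goblet and enteroendocrine markers averaged 13.57 to 13.86 on all 8 arrays. The part of these markers in the level of the 6 genes was not tested, and fewer cells that make a transcript cannot be told apart from less transcript per cell. Without WT DSS array 1, the array with pancreas signal, the WT differences of the 5 genes other than Zan ran from -6.75 (Hsd3b3) to -3.89 (Akr1c19), and without WT DSS array 2 they ran from -6.20 (Ccn3) to -4.41 (Akr1c19).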

How the data were processed

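RNA of 8 samples, 2 in each of 4 groups, was measured on 1 Affymetrix array each. The authors deposited values on a log2 scale, made with Affymetrix Expression Console per the submitters' processing notes. Not given in the sources used here are the normalization, the background correction and the genome build. Per the labels' protocols, RNA was purified on RNeasy columns and labelled as single-stranded DNA with the WT PLUS kit. Values were used as deposited.

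Of 28846 rows, 6640 were controls, 19572 had 1 gene symbol and 2634 had none. The 19572 rows matched RefSeq GRCm38.p6 by Entrez number and gave 19505 genes, with the row of highest mean kept for the 55 with several. The lowest 33.3% of genes by mean, under 5.15, were left out, and 13003 were tested. Background was the 75th percentile of 5222 negative-control rows on each array. Where all arrays of a group lay under it, a fold is given as a bound, from the other group's mean against the mean of that group's background.

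With limma 3.58.1 (R 4.3.3), 1 model with 4 group means was fitted to the 8 arrays (4 residual and 7.27 prior degrees of freedom). Two-sided p-values were adjusted by Benjamini-Hochberg over the 13003 genes, at a threshold of 0.05. The number of arrays limits the precision, and p-values measure only the spread between these samples. Promoter windows were compared with Biopython 1.88. Alternatives covered the filter, rows, scaling, variance model, array weights, arrays in the fit, a replicate block and the threshold.

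The members and all gene lists were chosen with earlier results of these data known. Named genes were the 6 members and Sgms2, all relatives in family lists that a comparison turns on, up to 4 genes past the threshold per pathway list (otherwise 2 of highest mean), up to 3 per cell type, the 12 most alike and 5 most opposite profiles, the 3 nearest per member, the 12 largest gaps and 3 neighbours a side. Predicted genes were not named.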

Additional observations from a re-analysis of the deposited data

Results flagged for a closer look

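Hsd17b13, a lipid droplet dehydrogenase, changed with DSS differently in the 2 genotypes. The change in KO mice minus that in WT mice was -2.71 (limma interaction, adjusted p = 0.0126). Both WT DSS arrays were higher than the other 6, as for 859 of the 13003 tested genes. The call was lost when any 1 of 4 arrays was left out, untreated WT array 1 (adjusted p = 0.0874) or 2 (0.114), WT DSS array 1 (0.0649) or untreated KO array 2 (0.065), and the difference then ran from -2.71 to -2.46.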

How the results depend on the processing

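The differences of the 6 genes kept their direction under all 11 alternatives run on them. The genes were chosen for low WT DSS values, so this follows from the choice and nothing is read from it. The sizes of these differences are given as a description. For DSS against untreated WT mice they ran from -6.75 to -5.90 for Hsd3b3, -5.91 to -5.23 for Hsd3b2, -5.54 to -5.20 for Aadac, -4.41 to -3.89 for Akr1c19 and -6.20 to -5.01 for Ccn3, and Zan is known only as a bound. Their median, -5.47, ran from -5.48 to -5.10 when 1 array was left out, the last without WT DSS array 1, and that for KO DSS against WT DSS mice from 4.52 to 4.77. Counts of called genes moved between alternatives. With an adjusted p under 0.1 they were 799 for the DSS change in WT (525 at 0.05), 190 for that in KO (121), 78 for KO against WT without DSS (51), 76 with DSS (46) and 16 for the interaction (10). Leaving out 1 array gave 215 to 716, 18 to 297, 3 to 132, 24 to 215 and 5 to 26 in the same order. Quantile normalization gave 70 for DSS in KO, 22 for KO against WT without DSS and 30 with DSS. Array weights gave 241 without DSS and 21 with DSS, and trended robust variance 70 with DSS. Fitting only the 4 arrays compared gave 14 for DSS in KO and 252 for KO against WT without DSS. The cause was not tested. Of 64 calls of named list genes, 25 held under every alternative, 39 were lost under at least 1 and 0 reversed.

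The labels do not say whether the replicate numbers pair the samples. The deviations of same-numbered arrays correlated at -0.25 to 0.28, which with 2 arrays per group cannot decide it. A replicate block called 474 genes in the DSS comparison of WT mice and 102 in that of KO mice. It called 48 between untreated KO and WT mice, 45 between KO and WT mice with DSS and 10 in the interaction. With the KO DSS numbers crossed, chosen after seeing the data, DSS in KO gave 159. The number of arrays and the background limit what can be said of Zan and Aadac in WT DSS mice.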
